A study of Mus musculus with 2 samples.

Results

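MicroRNA genes were described here by their position relative to the peaks of H1t, a testis-specific linker histone. The members were all genes typed as miRNA on chromosomes 1 to 19 in the GENCODE M21 annotation of mm10, 2054 genes of the 55413 annotated on chromosomes 1 to 19, X and Y. Spermatogenic cells came from testes of ICR mice aged 6 weeks, and chromatin was immunoprecipitated with an in-house rabbit antibody against H1t. The series holds 1 H1t immunoprecipitate and 1 input, and the peak list of the H1t library was used. It has 76546 peaks, 72438 of them on chromosomes 1 to 19, and a score per peak that is the authors' own value, between 50 and 3100 in the list. With 1 library there was no replicate and no test across samples, so every value is a description of this library. The input was not analysed here and read depth is unknown. A peak list does not measure expression, so the cell type could not be checked by its markers.

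A microRNA is made from a hairpin in a longer transcript, trimmed first in the nucleus and then in the cytoplasm, and the mature strand guides an Argonaute protein to target mRNAs. Bases 2 to 8 of the mature strand, the seed, carry most of the pairing with the target. Many hairpins lie inside introns or exons of host genes, and many are made together from 1 cluster transcript. In the testis, the miR-34b/c and miR-449 hairpins serve late germ cells, while the miR-17 cluster is known for proliferating cells. Linker histones bind the nucleosome where DNA enters and leaves, and H1t is made in spermatocytes and spermatids.

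The mature strands below are those of hairpins under H1t peaks on which the results turn, taken from RefSeq on GRCm38.p6 and printed 5′ to 3′ with the seed in capitals. They follow the known setting of the hairpin: the imprinted chromosome 12 region, germ line, sensory organs, nerve cells and the let-7 family. The strand of miR-34a is placed beside miR-34b for its seed. Where a hairpin is only in part under its peak, the strand itself can lie outside, as that of miR-665-3p does. The strands of miR-183-5p and miR-202-5p lie mostly outside their peaks.
miR-337-3p: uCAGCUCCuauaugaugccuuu
miR-540-3p: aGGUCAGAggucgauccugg
miR-665-3p: aCCAGGAGgcugaggucccu
miR-370-3p: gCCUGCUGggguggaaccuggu
miR-409-3p: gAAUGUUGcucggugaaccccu
miR-412-3p: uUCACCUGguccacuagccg
miR-369-3p: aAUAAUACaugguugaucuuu
miR-17-5p: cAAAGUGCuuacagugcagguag
miR-18a-5p: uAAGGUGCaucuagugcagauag
miR-19a-3p: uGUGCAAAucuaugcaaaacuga
miR-34b-5p: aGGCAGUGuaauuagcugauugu
miR-34a-5p: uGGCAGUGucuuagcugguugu
miR-202-5p: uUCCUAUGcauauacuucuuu
miR-182-5p: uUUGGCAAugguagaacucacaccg
miR-96-5p: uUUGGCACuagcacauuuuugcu
miR-183-5p: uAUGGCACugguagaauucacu
miR-9-5p: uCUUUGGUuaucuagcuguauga
miR-132-3p: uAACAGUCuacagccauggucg
miR-212-3p: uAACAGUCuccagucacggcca
miR-138-5p: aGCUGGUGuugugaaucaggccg
let-7b-5p: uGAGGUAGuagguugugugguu
By symbol, 83 of the 155 hairpins under peaks had an entry in that table. Among printed strands, miR-34a and miR-34b shared the seed GGCAGUG, and miR-132 and miR-212 shared AACAGUC. The strand of miR-9 is encoded by both Mir9-1 and Mir9-3, which lie on chromosomes 3 and 7 and were both under a peak. Outside this selection 3 hairpins in coding genes, Mir7018, Mir7023 and Mir7068, shared the seed CACCCUG in their 3p strands.

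Of the 2054 miRNA genes, 155 (7.55%) overlapped an H1t peak by at least 1 bp, against 2.72% of all windows of 90 bp, the median miRNA gene length, on the same chromosomes. The ratio of the 2 shares was 2.77. The 155 genes lay under 137 distinct peaks, and 140 of them lay wholly inside their peak. A single miRNA gene was found in 127 of these peaks and 2 to 4 in the other 10. These peaks were of ordinary strength and width: their median score was 72.67 against 73.82 for all peaks of chromosomes 1 to 19, and their median width was 683 bp against 699 bp. A score of 100 or more was reached by 24.1% of them, against 29.3% of all peaks. With peaks at or above the median score alone, 3.55% of miRNA genes overlapped one, against 1.68% of windows.

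In ratio, the excess over windows was largest at overlap and fell with distance, though in percentage points it was wider at 5000 bp. A peak lay within 500 bp of 11.7% of miRNA genes and 5.37% of windows, and within 1000 bp of 15.1% and 7.69%. At 5000 bp the shares were 30.8% and 22.7%, and at 10000 bp 43.0% and 37.2%. The median distance to a peak was 13302 bp for miRNA genes and 15767 bp for windows. Within 100000 bp the shares were 97.8% for miRNA genes and 96.7% for windows. The 3 hairpins farthest from any peak were neighbours on chromosome 9, namely Mir125b-1 at 389359 bp, Mirlet7a-2 at 378740 bp and Mir100 at 373449 bp.

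**Figure D1:**
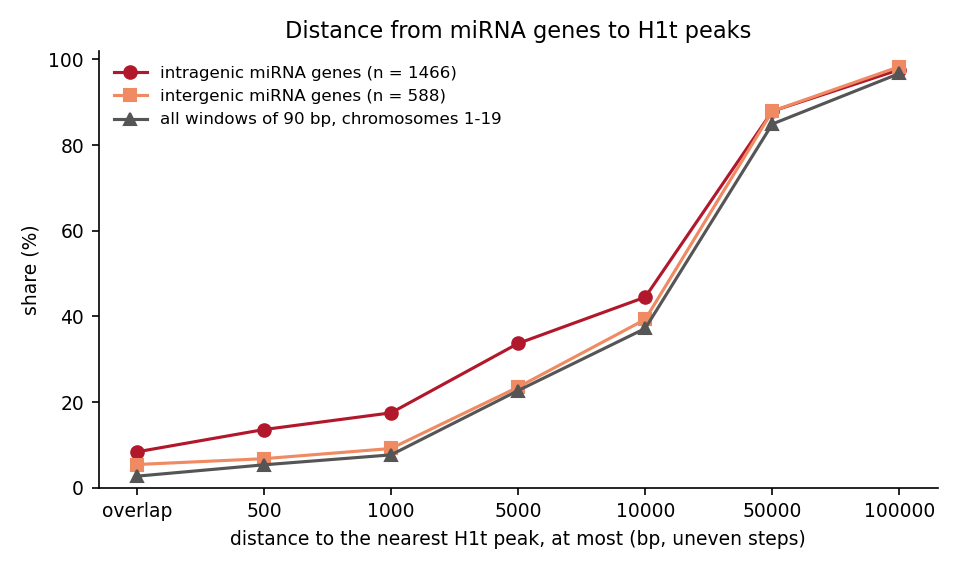
Share of intragenic miRNA genes, intergenic miRNA genes and 90-bp windows of chromosomes 1 to 19 (y axis, %) with an H1t peak at or within each distance (x axis, bp, uneven steps). Intragenic genes lie above windows from overlap (8.39% against 2.72%) to 10000 bp (44.5% against 37.2%), while intergenic genes approach the windows at 5000 bp (23.5% against 22.7%).

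Sex chromosomes, outside the 2054 genes, gave a single overlap. Of 142 miRNA genes on X 1 overlapped a peak (0.704%) and of 6 on Y none did (0%), against 1.38% of windows on X and Y. The gene on X was the predicted Gm44333, which its peak (score 59.89) touched by 12 bp.

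Intragenic miRNA genes, those inside any other annotated gene on either strand, overlapped peaks in 123 of 1466 cases (8.39%), where windows inside genes gave 2.34%. Intergenic ones did so in 32 of 588 cases (5.44%), where windows outside genes gave 3.07%. Peaks under intergenic hairpins were fewer than these genes, 24 in all, since several held a cluster. Single intergenic miRNA genes, with no other within 10 kb, overlapped a peak in 16 of 465 cases (3.44%), close to the 3.07% of windows. Intragenic genes without a neighbour did so in 95 of 1102 cases (8.62%). Among clustered genes the order of the shares was the opposite, with 28 of 364 intragenic genes (7.69%) and 16 of 123 intergenic genes (13.0%) under a peak, the 16 from 8 peaks. The strand of the host made little difference to the share, with 97 of 1155 (8.4%) where a host was on the same strand and 26 of 311 (8.36%) where hosts were on the other strand only.

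Hairpins in exons of coding genes had the highest share of the position classes. They overlapped a peak in 52 of 340 cases (15.3%), against 5.59% of windows that touch such exons, a ratio of 2.74. Hairpins in introns of coding genes did so in 42 of 845 cases (4.97% against 1.89%, ratio 2.63). Non-coding hosts gave 13 of 140 in exons (9.29% against 2.0%, ratio 4.64) and 13 of 101 in introns (12.9% against 2.62%, ratio 4.92), but the 13 in introns lay under only 7 peaks. The other 40 genes, in an intron of a coding gene and an exon of another gene, had 3 overlaps (7.5% against 1.9%). A coding start site lay within 1000 bp of 157 miRNA genes, and 40 of these (25.5%) overlapped a peak, against 115 of the 1897 farther away (6.06%). Of the 137 peaks, 25 (18.2%) held a coding start site, against 4.32% of all peaks on chromosomes 1 to 19.

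**Figure D2:**
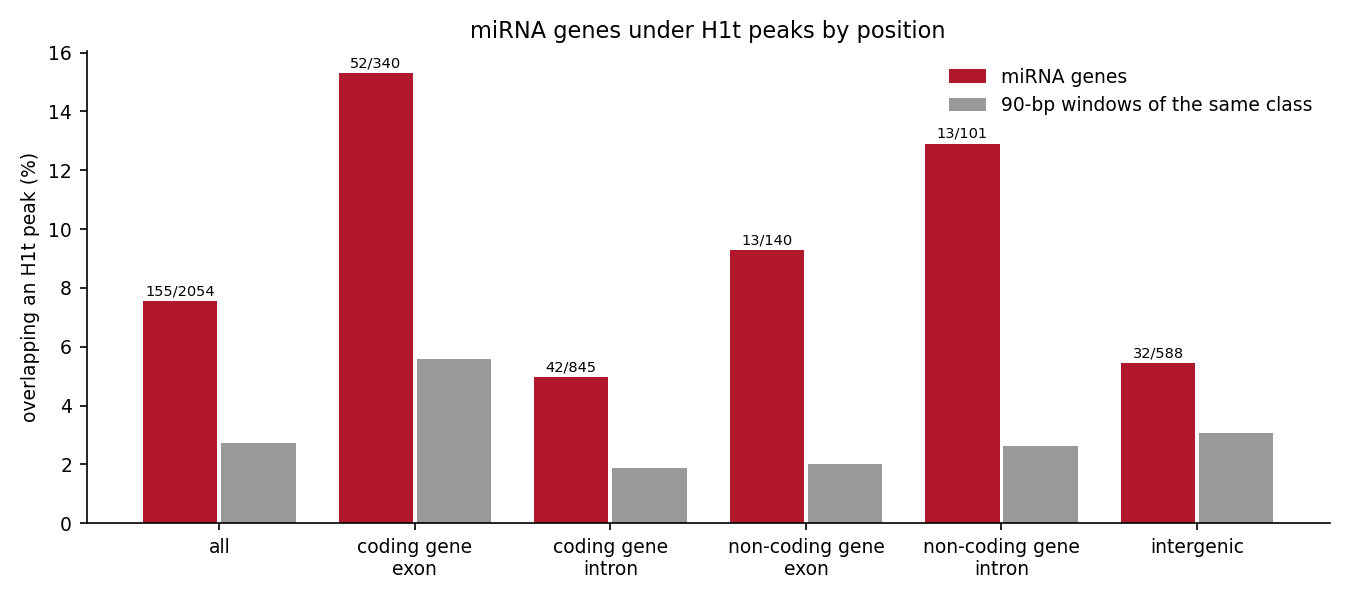
Share of miRNA genes (left bars, with counts) and of 90-bp windows of the same class (right bars) that overlap an H1t peak (y axis, %), for all genes and by position. The class of 40 genes in an intron of one gene and an exon of another is left out; miRNA genes exceed their windows in each class drawn, from 15.3% against 5.59% in coding exons to 5.44% against 3.07% between genes.

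Names in the annotation follow the history of each hairpin: Mir and Mirlet names come from the miRNA registry, with higher numbers for later entries, and Gm names from gene prediction. Entries numbered below 1000, with the let-7 genes, overlapped peaks in 41 of 460 cases (8.91%), entries from 1000 to below 5000 in 13 of 165 (7.88%), those from 5000 in 41 of 459 (8.93%) and genes with Gm or other names in 60 of 970 (6.19%). The classes parted in introns of coding genes. There the entries from 5000 had a share of 9.16% (24 of 262) and a median hairpin GC content of 54.7%, those below 1000 a share of 3.94% (8 of 203) and a GC content of 42.4%, those between 4.29% (3 of 70) and 52.3%, and the Gm genes 2.26% (7 of 310) and 45.8%. Between genes the share was 1.61% (1 of 62) for entries from 5000, 2.94% (1 of 34) for those from 1000 to below 5000, 10.9% (11 of 101) for those below 1000 and 4.86% (19 of 391) for the Gm genes. The 11 below 1000 include 3 genes of the miR-183 cluster and 3 under a single peak of the chromosome 12 region.

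Shares ran wider across classes of hairpin GC content than across the position classes. In 5 classes of similar size, 3 of 411 miRNA genes (0.73%) overlapped a peak where GC content was at most 41.3%, and 96 of 403 (23.8%) where it was above 60%. The classes between had 14 of 412 (3.40%), 21 of 413 (5.08%) and 21 of 415 (5.06%) in rising order. Median GC content was 62.9% in overlapped hairpins and 50.5% in the others. In the class of highest GC content 80 of 320 intragenic genes (25%) and 16 of 83 intergenic genes (19.3%) overlapped a peak. The intragenic share was also the higher one in the second class (3.46% against 3.25%) and the fourth (7.14% against 0.741%). It was the lower one in the first class, with 1 of 291 intragenic (0.344%) and 2 of 120 intergenic genes (1.67%), and in the third, with 12 of 286 (4.2%) and 9 of 127 (7.09%). Without that class the share of all miRNA genes was 3.57%, that of single genes 2.47% and that of clustered genes 7.04%.

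Small nucleolar RNA genes, which guide modification of ribosomal RNA, and small nuclear RNA genes, which mostly serve splicing, are other short genes and had lower shares in all. A peak overlapped 20 of 1442 snoRNA genes (1.39%) and 22 of 1292 snRNA genes (1.70%). Their median GC contents were 45.4% and 42.1%, against 51.2% in miRNA genes. Within a GC class the gap was in part narrower or turned round: between 48.8% and 54.4%, 5.08% of miRNA genes, 1.53% of 326 snoRNA genes and 2.47% of 81 snRNA genes overlapped a peak, and above 60% the 13 snoRNA genes had 4 overlaps (30.8%). The input, which would show background by GC content, was not analysed here, and the part of GC content in the overlaps was not tested.

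**Figure D3:**
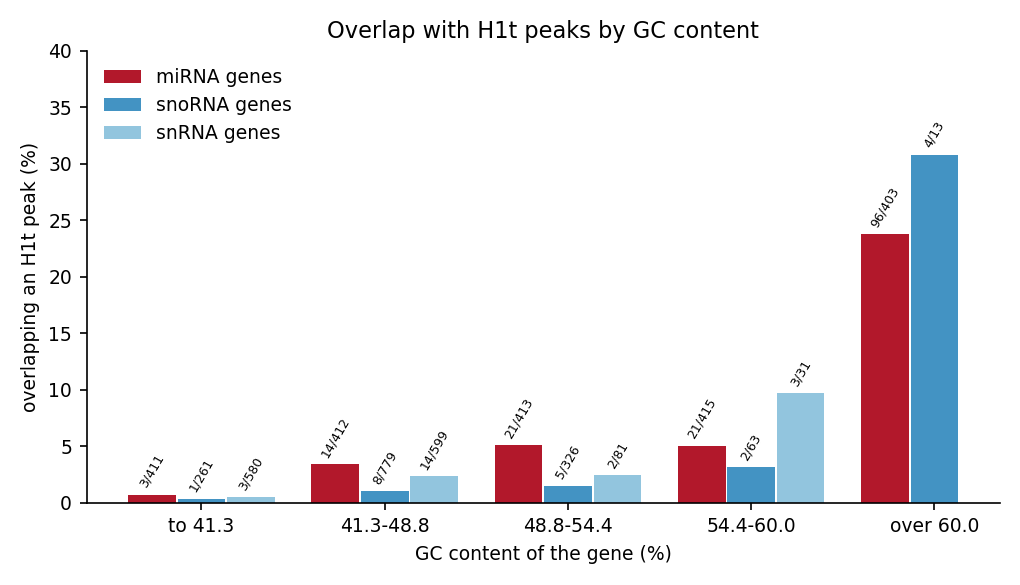
Share of miRNA, snoRNA and snRNA genes on chromosomes 1 to 19 overlapping an H1t peak (y axis, %) by GC content of the gene (x axis, %, class limits from miRNA genes; counts above bars, classes under 10 genes not drawn). The miRNA share is 0.73% in the lowest class and 23.8% in the highest.

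Clusters, runs of miRNA genes with gaps of at most 10 kb on either strand, numbered 133 and held 487 genes. Clustered genes overlapped peaks in 44 cases (9.03%) and single genes in 111 of 1567 (7.08%). The 44 genes shared 26 peaks, so the clustered share counts several peaks more than once. Among intragenic genes the clustered share was the lower one (7.69% against 8.62%). At least 1 member was overlapped in 23 clusters (17.3%), and every member in 7. The first count is easier to meet with more members, so it does not compare with the shares of genes. Clusters of 3 to 5 genes had a share of 19.8% (16 of 81), pairs 8.25% (17 of 206) and the 2 largest clusters together 2.45% (4 of 163).  With overlapping miRNA genes merged, 2021 loci remained, of which 149 (7.37%) were under a peak.

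The largest cluster had no overlap. It lies in an intron or introns of Sfmbt2, a Polycomb-group gene imprinted in the mouse placenta, at chromosome 2, 10465287 to 10518279, and holds 119 genes, 71 of them with Mir names. No peak lay in its 53.0 kb, and the nearest was 11234 bp from a member. Hairpin GC content ran from 29.0% to 43.4% with a median of 37.3%, and 88 of the 119 had a near-identical miRNA gene elsewhere. Without this cluster the clustered share was 12% (44 of 368). The miR-290 cluster of embryonic stem cells on chromosome 7 (9 genes, nearest peak 12962 bp) and the cluster from Mir344d-3 to Gm23873 on the same chromosome (6 genes, nearest peak 7078 bp) had no overlap as well.

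The chromosome 12 region lies in the imprinted Dlk1-Dio3 domain, whose miRNAs are made from the maternal copy. Its 63 miRNA genes, from Mir493 (start 109580233) to Mir3072 (end 109747960), run from near Rtl1, a paternally expressed gene, through the non-coding genes Rian and Mirg. Peaks overlapped 10 of the 63 (15.9%), and 3 peaks did so. A peak at 109585774 to 109586342 (score 84.11) covered Mir337, Mir3544, Mir540 and part of Mir665 outside annotated host genes. In an intron of Rian, a peak at 109618017 to 109618528 (score 56.58) covered Mir370 and Gm23912. At the far end a peak at 109743011 to 109743602 (score 54.86) covered Mir409, the antisense Gm24321, Mir412 and Mir369 in Mirg. Mir410 lay 112 bp from this last peak, and 2 further peaks of the region (scores 50.37 and 132.72) held no miRNA gene.

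Peaks were not denser in this region than elsewhere. It had 5 peaks, or 2.94 per 100 kb, against 3.01 on chromosomes 1 to 19. Peaks took 1.34% of the span of the miRNA genes, against 2.45% of these chromosomes. That span leaves out the peak of score 132.72, which lies beyond Mir3072. The share of 15.9% thus came from 2 peaks on 4 genes each and 1 on 2. Between the peaks over Mir370 and Mir409 no peak lay in 124482 bp, a stretch with 39 miRNA genes from Mir882 to Mir541. Median hairpin GC content was 43.6% in that stretch and 52.9% in the 10 overlapped genes. The ranges overlap, from 29.1% to 64.6% in the stretch and from 41.8% (Mir369) to 61.2% (Mir540) under peaks. Of the 39, 25 had a GC content at or above that of Mir369. Mir369 was low among the 10, however, and the next lowest was Mir3544 at 50.8%. Mir770, in an exon of the maternally expressed Meg3 just before the region, was 13590 bp from a peak.

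**Figure D4:**
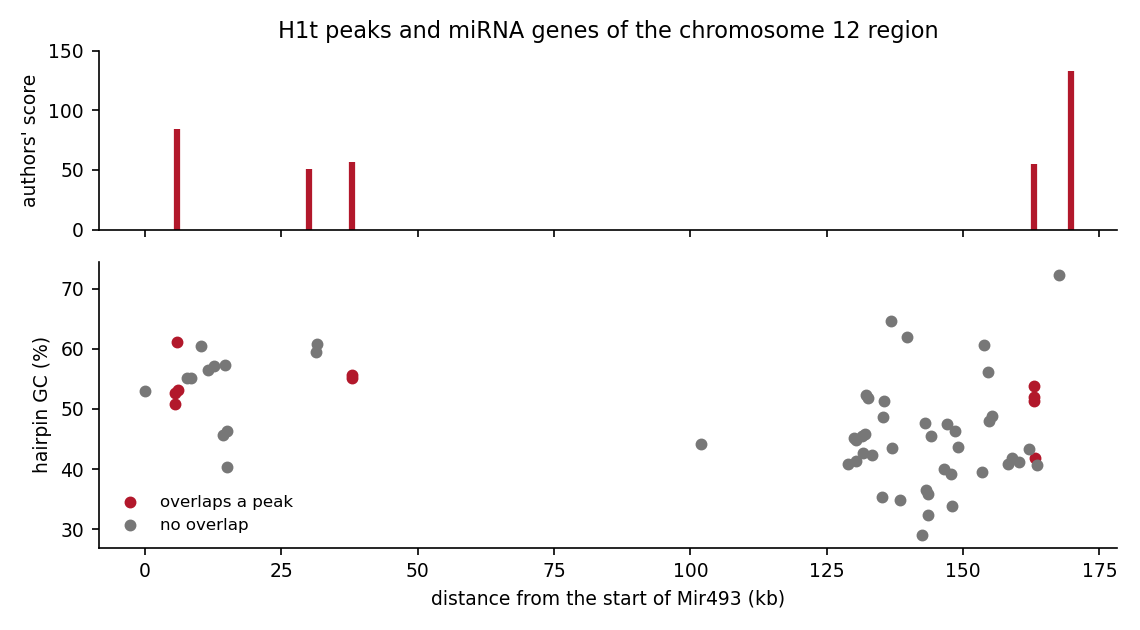
Score of the 5 H1t peaks (upper panel, the authors' value) and GC content of the 63 miRNA hairpins (lower panel, %) by distance from the start of Mir493 (kb). The 10 hairpins under a peak fall in 3 groups, at peaks starting 5.54, 37.78 and 162.78 kb along, with 39 hairpins and no peak between the last 2 groups.

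Outside this region, 5 clusters of 3 or more genes had at least 50% of members under a peak. The miR-183 cluster, known for sensory hair cells and photoreceptors, lies between genes on chromosome 6 (30165918 to 30169737). Mir182 lay under a peak of score 85.41, and Mir96 and 44 of the 70 bp of Mir183 lay under a second of 63.39. On chromosome 3 (88215171 to 88215696) 1 peak of score 116.71 covered Mir9-1, Mir3093 and, on the opposite strand, Gm25641 in the non-coding gene Gm3764. In the miR-17 cluster, known for promoting proliferation, the peak at chromosome 14, 115043634 to 115044058 (score 57.25), covered Mir17, Mir18 and part of Mir19a in an exon of Mir17hg and ended 98 bp before Mir20a. Mir19b-1 and Mir92-1 followed at 246 and 368 bp. The remaining clusters were made of predicted genes or copies: 4 genes at chromosome 12, 113424645 to 113425227, under a peak of score 181.37, and 3 copies on chromosome 1 described below. Of all 30 clusters of 3 or more genes, 9 had an overlapped member.

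The lists below were set by known role, but with earlier results of these data known. Their shares, printed beside the 7.55% of all miRNA genes, are thus descriptions only. Male germ line hairpins on chromosomes 1 to 19 overlapped peaks in 5 of 31 cases (16.1%), from 3 peaks. Their median distance was 1233 bp, against 13302 bp for all miRNA genes. Clusters weigh on that median, since the 6 miR-17 genes share a nearest peak, as do the 5 miR-302 genes. Of the 5 overlapped genes, Mir17, Mir18 and Mir19a lay under 1 peak, so the share rests largely on the miR-17 cluster. The others were Mir34b and Mir202. Mir34b lies in an intron of Btg4 on chromosome 9 (51103562 to 51103645, peak score 96.91), on the strand opposite to that gene. The hairpin of Mir202, a gonad-enriched miRNA, lies at chromosome 7, 139957689 to 139957760 (score 79.77), with 13 of its 72 bp under the peak. Mir34c, the partner of Mir34b, lay 225 bp from the same peak, while the related Mir449a, Mir449b and Mir449c in Cdc20b were 16914, 16799 and 15363 bp from theirs. The miR-302 cluster of pluripotent cells, 5 genes in Larp7 on its opposite strand, had none under a peak but all within 607 bp of one. Mir106b, Mir93 and Mir25 in Mcm7 were 1233 to 1647 bp away. Listed genes of the miR-290 cluster were 12962 bp (Mir295) to 15095 bp (Mir290a) from a peak, and Mir21a was 156262 bp away. Mir34a, on no list, was under a peak of score 50.61 on chromosome 4 (150068454 to 150068555), close to the lowest score of 50.

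Hairpins known from nerve cells overlapped in 5 of 18 cases (27.8%), under 4 peaks. Their median distance was 4175 bp, and members such as Mir137 (33562 bp) and Mir128-1 (14494 bp) lay farther off. Mir132 and Mir212, which respond to neuronal activity, lay under a single peak of score 143.70 in an intron of 1700016P03Rik on chromosome 11. Mir9-1 and Mir9-3, regulators of neural progenitors, had peaks of 116.71 and 95.86, while Mir9-2 was 520 bp from one. Mir138-1 had a peak of score 60.01, and its second copy Mir138-2 was 40056 bp from one. Of the 3 miR-124 genes, abundant in neurons, none overlapped a peak, with Mir124a-1 and Mir124a-3 at 306 and 813 bp and Mir124a-2 at 8557 bp. Genes that encode the same mature miRNA thus differed in their distance to peaks.

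The sensory list, the miR-183 cluster described above, had all 3 of its genes under a peak (100%), Mir183 only in part. The let-7, muscle and Hox lists had 1 overlap each, and the miR-200 and blood cell lists none. Median distances were 18811 bp (let-7), 14227 bp (muscle) and 19138 bp (blood cell), beyond the 13302 bp of all miRNA genes. They were 1878 bp in the Hox list and 8533 bp in the miR-200 list. Genes named below with a distance are the nearest of their lists without overlap. Among let-7 and neighbouring miR-99, miR-100 and miR-125 hairpins, a group known for developmental timing, 1 of 16 was under a peak (6.25%), Mirlet7b at chromosome 15, 85707319 to 85707403 (score 50.32). Mirlet7c-2 in the same cluster was 272 bp from it and Mirlet7i 142 bp from another peak. The muscle list had 1 of 10 (10%), Mir1a-1 (score 81.31), whose peak began inside the hairpin; its cluster partner Mir133a-2 was 247 bp from a peak. Of 6 hairpins in Hox clusters, 1 (16.7%) was overlapped, Mir615 in an intron of Hoxc5 (score 63.44), and Mir10b was 413 bp away. None of 6 hairpins of the epithelial miR-200 list, such as Mir200a, Mir200b and Mir141, and none of 12 blood cell hairpins, such as Mir142, Mir155 and Mir150, were under a peak. Lists of this size hold few genes, and their members share peaks, so these shares and the median distances are imprecise.

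**Figure D5:**
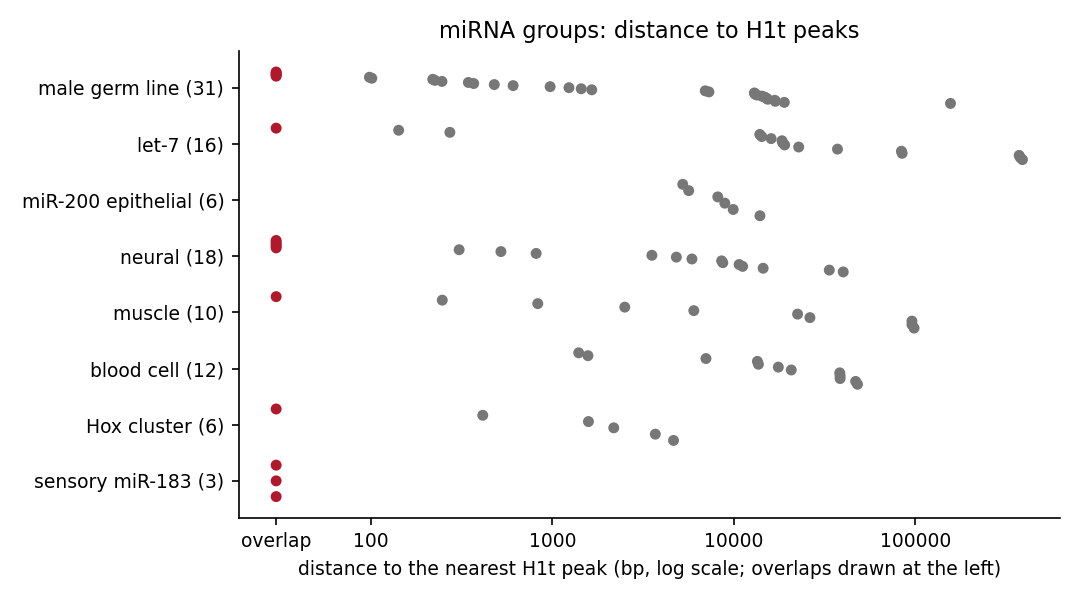
Distance from each miRNA gene of the 8 lists to the nearest H1t peak (x axis, bp, log scale, overlaps drawn at the left in red; list sizes in brackets). The germ line list has 5 of 31 at overlap and a median of 1233 bp, and all 6 members of the miR-200 list lie above 5000 bp. Genes of a cluster often share a nearest peak.

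Most of the highest scores under miRNA genes belonged to predicted genes that exist in copies. Of the 15 genes with the highest-scoring peaks, 14 had Gm names and 11 had a near-identical miRNA gene elsewhere. Among all 2054 miRNA genes, 970 had Gm or other names and 563 had such a copy. The 15 are not separate cases, since 4 of them share the peak of score 181.37 on chromosome 12. The highest, Mir6546 in an intron of the Fc receptor gene Fcgr3, had a peak of score 1397.55, and its neighbours Gm27844 and Gm27552 on chromosome 1 had 700.69 and 262.66. The hairpins of these 3 genes and of a second family are shown to let their likeness be seen, from the GENCODE M21 transcripts on GRCm38 (mm10), 5′ to 3′, with capitals where a base differs from the first of its family.
Mir6546: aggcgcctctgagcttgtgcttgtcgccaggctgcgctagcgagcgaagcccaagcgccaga
Gm27552: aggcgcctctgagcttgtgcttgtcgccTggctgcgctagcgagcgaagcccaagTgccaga
Gm27844: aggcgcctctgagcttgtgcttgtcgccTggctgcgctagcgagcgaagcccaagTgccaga
Gm23935: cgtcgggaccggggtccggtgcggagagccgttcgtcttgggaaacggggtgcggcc
Gm24270: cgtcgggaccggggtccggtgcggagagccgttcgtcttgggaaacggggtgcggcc
Gm24187: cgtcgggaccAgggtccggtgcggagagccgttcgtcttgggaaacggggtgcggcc
The first 3 lie on the minus strand at chr1:171064591-171064652 (Mir6546), chr1:171072226-171072287 (Gm27552) and chr1:171079840-171079901 (Gm27844). They are 62 bases long, and Gm27552 and Gm27844 both differ from Mir6546 at 2 positions. The second 3 are 57 bases long. Gm23935 lies in an intron of Zc3h7a at chr16:11144125-11144181 on the plus strand, opposite to that gene (score 529.12). Gm24270 lies in an intron of Peak1 at chr9:56223715-56223771 on the minus strand (269.61), and Gm24187 between genes at chr13:9834469-9834525 on the minus strand (190.83). They are part of a family of 6 genes whose other 3 members had no peak.

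Over all miRNA genes, X and Y included, 79 families of near-identical genes were found, and 16 had a member under a peak. A family of 20 genes of 107 bp on 13 chromosomes had 6 under peaks, with scores from 51.39 to 232.67, led by Gm27430. The largest family, 50 genes led by Gm22002, had none under a peak, the family of Gm23147 had 1 of 49 and that of Gm24975 had 4 of 48. In all, 32 of the 563 members with a near-identical miRNA gene elsewhere overlapped a peak (5.68%), against 123 of 1491 without (8.25%). How the authors treated reads that match several places is not stated in the labels, and its part in these scores was not tested. Among the top 15, genes without a near-identical miRNA gene included Gm25948 in an exon of Cep131 (183.37), Gm24804 in an exon of Glis1 (167.45) and Gm27486 in an exon of Sbno1 (166.20), with hairpin GC contents of 58.9%, 85.9% and 75%.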

How the data were processed

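Per the submitters' processing notes, the aligner was Bowtie 1.1.2 and the genome mm10. Peak names have the form that MACS writes; no label states the caller, its threshold or how the input was used. Each line of the deposited list holds a peak's position and the authors' score, used here to describe, rank and filter peaks. Positions are printed counted from 1 on mm10 and were compared with GENCODE M21.

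Overlap meant at least 1 bp, and distance was counted between nearest ends. Background was the share of adjoining 90-bp windows, from the first to the last gene or peak of each chromosome, that met the same rule; assembly gaps were not removed. Near-identical meant an edit distance of at most 10% of the longer hairpin, in either orientation and at another place. GC content was that of the annotated transcript. Functions were tested on simulated peaks.

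Genes were named by a rule: the 15 highest-scoring, those of the chromosome 12 region, clusters with at least 50% of members overlapped, the largest clusters, list members and the 3 farthest; names beyond it, such as Mir34a, were chosen after their values were seen. The members and lists were chosen with earlier results of these data known. Scripts ran in Python 3.11.15 with pandas 2.3.3 for tables, numpy 2.4.6, matplotlib 3.10.9, scipy 1.17.1 for exact intervals, and edlib for edit distances. The alternatives are in the closing section.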

Additional observations from a re-analysis of the deposited data

How the results depend on the processing

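Of 93 alternative values for 7 results, 65 stayed within the 95% binomial or order-statistic interval of the reported value and 28 moved beyond it. These intervals count each gene as independent, though neighbours share peaks. They serve only as a yardstick here and do not measure variation between libraries. The intragenic share was higher than the intergenic one in all 15 alternatives that gave both. It was the lower one within clustered genes (7.69% against 13.0%) and within GC classes 1 and 3 (0.344% against 1.67% and 4.2% against 7.09%). The clustered share was higher than the single one in all 14 alternatives that gave both, but lower within intragenic genes (7.69% against 8.62%). In the order all, intragenic, intergenic, clustered, single and chromosome 12 region, peaks at or above the median score gave 3.55%, 3.75%, 3.06%, 4.93%, 3.13% and 6.35%, fewer by construction, and a median distance of 30458 bp. A peak within 500 bp gave 11.7% of all, 13.6% of intragenic, 15.4% of clustered and 10.5% of single genes; within 1 kb the shares were 15.1%, 17.5%, 19.1% and 13.9%, and 9.18% of intergenic genes, wider by construction. With 1 vote per cluster, overlap of any member and the smallest distance counted, more lenient by construction. The clustered share was then 17.3%, the chromosome 12 share 75% (3 of 4 clusters or single genes) and the median distance 12124 bp. The distance was 11241 bp with Mir and Mirlet names alone. Added after the data were seen: without the largest cluster the clustered share was 12% and the distance 12002 bp, without near-identical copies the distance was 12067 bp, and without the highest GC class the shares were 3.57% of all, 3.75% of intragenic, 3.17% of intergenic and 2.47% of single genes and the distance 15292 bp; the cause was not tested. Host strand, coding hosts, cluster gaps of 3, 5 and 50 kb, scores of 500 or more left out, most of the gene required inside, the chromosome 12 region left out, X and Y added and merged loci moved none. No paired analysis was possible because the series holds 1 H1t library. Neither the depth nor the input of this library is known here, which limits what the weakest peaks can show.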
